A study of Mus musculus with 16 samples.

Results

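Striatal mRNA of R6/1 mice that did badly in behavioural tests was compared with that of wild-type mice that also did badly. The comparison takes 8 of the 16 mice of the series, the 4 titled R6/1 “poor” and the 4 titled wild-type “poor”, and 19363 of the 55450 genes in the deposited table, which are the genes that reached 10 counts in 4 or more of the 16 libraries. All mice were males aged 14 weeks on a C57Bl/6 background with no drug treatment, the wild-type mice were littermates, and each library came from the striatum of 1 mouse. R6/1 mice carry a fragment of the human huntingtin gene with an expanded CAG repeat under the human promoter, a model of Huntington’s disease (HD) in which the fragment is made in all cell types and the mouse gene is intact. The study ranked the animals by rotarod, clasping and body weight scores and took “poor” and “good” performers from each genotype, so the controls used here match the mutants in their rank within the genotype and not in the scores themselves. Below, mutant mice means R6/1 “poor” and control mice means wild-type “poor”, unless “good” is written.

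Most neurons of the striatum are medium spiny neurons (MSNs), inhibitory projection cells that receive glutamate from the cortex and dopamine from the midbrain. Direct-pathway MSNs carry the D1 dopamine receptor and make substance P and dynorphin, whereas indirect-pathway MSNs carry the D2 dopamine receptor and the Adora2a adenosine receptor and make enkephalin. Loss of the mRNAs that define these cells, ahead of cell death, is a well-known feature of HD models. In bulk tissue, fewer cells of a type and less RNA per cell cannot be told apart.

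Total counts lay between 19734534 and 24439777 in the mutant libraries and between 20250680 and 24897354 in the control libraries, so depth did not separate the groups. On PC1 of log2 CPM (library-scaled counts), which held 42.4% of the variance over the 8 libraries, the mutant mice lay between -50.0 and -9.68 and the control mice between 23.1 and 42.2. Mutant mouse 4 stood apart on PC2 (18.4%) at -50.8. Its summed CPM of 16 genes of cortical projection neurons was 1252, against 378 to 564 in the other mutant mice and 469 to 1049 in the control mice. Mutant mouse 1 held the most RNA of 12 lateral septal genes, 455 CPM against 167 to 325 in the other mutants and 173 to 241 in the controls. Library running numbers were balanced, with 1 mutant and 1 control among numbers 1 to 8 and 3 of each among numbers 9 to 16. The mouse Htt gene, which is not the transgene, stood at 164, 185, 178 and 161 CPM in mutant mice 1 to 4 and at 156, 158, 162 and 174 CPM in the control mice. These values overlapped (log2 fold change 0.08, adjusted p = 0.421), and the transgene itself is not a row of the table, so it gives no check of the labels here.

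Between mutant and control mice, edgeR called 3735 genes at an adjusted p under 0.05 (quasi-likelihood test, Benjamini-Hochberg adjustment). Of all genes tested, 8.48% were called higher in the mutants (1642 genes) and 10.8% were called lower (2093 genes). The falls were larger than the rises. Of the called genes, 1163 fell and 438 rose by more than 1.5-fold, 568 fell and 120 rose by more than 2-fold, and 118 fell and 8 rose by more than 4-fold. The median log2 fold change was -0.65 for the genes called lower, 0.39 for those called higher and 0.01 for all tested. In 3344 of the 3735 called genes (89.5%) the 4 mutant mice did not overlap the 4 control mice, while among all genes 10.9% were higher and 12.6% lower without overlap. Long noncoding genes were called less widely than coding genes on the side of the rises, with 82 of 2439 higher and 223 lower, against 1526 of 15306 higher and 1774 lower. Left out in turn, 1 mouse at a time, the count of called genes ran from 2144 without mutant mouse 3 to 4741 without mutant mouse 4. The 6 libraries numbered 9 to 16 gave 2104, and all 3735 genes had the same sign there and without mutant mouse 4. These fits reuse mice by which the genes were called, so the shared sign comes largely with the choice.

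**Figure D1:**
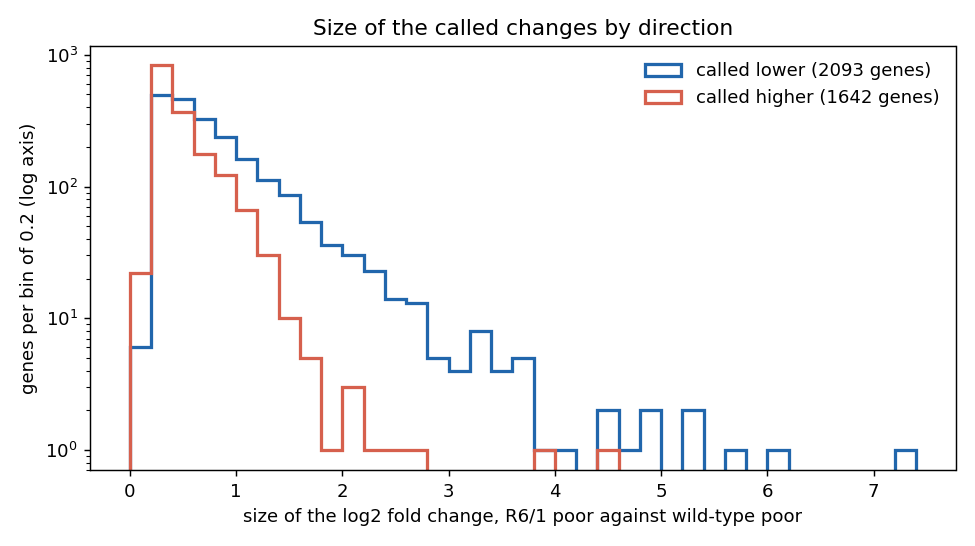
Number of genes called lower (blue) and higher (red) in R6/1 “poor” against wild-type “poor” mice, by the size of the log2 fold change in bins of 0.2 (log axis of genes). Rises outnumber falls in the smallest bins and falls outnumber rises in the larger ones, with 568 falls and 120 rises beyond 1.

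The mRNAs that define MSNs were lower in the mutants. Of 30 genes shared by all MSNs, 29 fell and none rose, while 10.8% of all genes were called lower. The list’s median was -1.48 on the log2 scale. The list gave 29 falls, 1 rise and a median of -1.68 without mutant mouse 4, and 28 falls and -1.37 within libraries 9 to 16, where 6.93% of all genes were called lower. Scn4b (ENSMUSG00000046480, chromosome 9, 45138395 to 45154152), the sodium channel subunit beta 4 that supports fast firing, stood at 100, 119, 106 and 150 CPM in mutant mice 1 to 4 and at 1496, 1193, 1495 and 1277 CPM in the control mice. The highest mutant value was far below the lowest control value. The mean fell from 1365 ± 154 to 119 ± 22.1 CPM (SD, n = 4), a log2 fold change of -3.52 ± 0.14 (SE, adjusted p = 1.9e-06). Pde10a (ENSMUSG00000023868, chromosome 17, 8525372 to 8986648), the phosphodiesterase that breaks down cAMP and cGMP in MSNs, stood at 210, 278, 239 and 313 CPM in the mutants and at 1387, 1068, 1355 and 1116 CPM in the controls. All 4 mutants were again well below all controls (-2.24 ± 0.14, adjusted p = 1.22e-05). Rasgrp2, an exchange factor for Rap, fell by 1.90 on the log2 scale, Strn, the scaffold striatin, by 1.19, and Arpp21, a cAMP-regulated phosphoprotein, by 1.72.

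Indirect-pathway genes fell further than direct-pathway genes by their medians, though 6 and 8 genes were measured and the difference was not tested. Of 6 indirect-pathway genes, 4 fell (median -1.90), and of 8 direct-pathway genes, 5 fell (median -0.89), with none called higher in either list. All 6 indirect-pathway values were negative, whereas 3 direct-pathway genes had positive values, up to 0.22, without a call. Penk (ENSMUSG00000045573, chromosome 4), the enkephalin precursor, stood at 214, 290, 236 and 251 CPM in the mutants and at 1651, 1318, 1486 and 1197 CPM in the controls. The highest mutant value, in mouse 2, was far below the lowest control value. Its log2 fold change was -2.51 ± 0.12 (adjusted p = 2.92e-06). Adora2a (chromosome 10, 75316877 to 75334784), the main adenosine receptor of these cells, stood at 34.2, 74.6, 38.2 and 65.1 CPM in the mutants and at 376, 248, 331 and 279 CPM in the controls. Mutant mice 2 and 4 kept the most of it, and still lay below every control (-2.54 ± 0.28, adjusted p = 0.000754). Drd2 (chromosome 9, 49340627 to 49408177), the D2 receptor, stood at 52.9, 70.2, 57.2 and 79.5 CPM against 286, 243, 272 and 226 CPM, with no overlap (-1.98 ± 0.13, adjusted p = 1.72e-05). Gpr6, an orphan receptor of the same cells, fell by 1.81.

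In the direct pathway, Drd1 (chromosome 13, 54051183 to 54055705), the D1 receptor, stood at 66.3, 93.6, 74.0 and 95.5 CPM in the mutants and at 301, 247, 304 and 233 CPM in the controls. No mutant reached the lowest control (-1.72 ± 0.14, adjusted p = 5.47e-05). Chrm4, the M4 muscarinic receptor, fell by 1.66 and Pdyn, the dynorphin precursor, by 1.33. Tac1, the substance P precursor, fell by 0.65 (SE 0.09, adjusted p = 0.000623), the smallest fall among these MSN receptors and peptides.

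**Figure D2:**
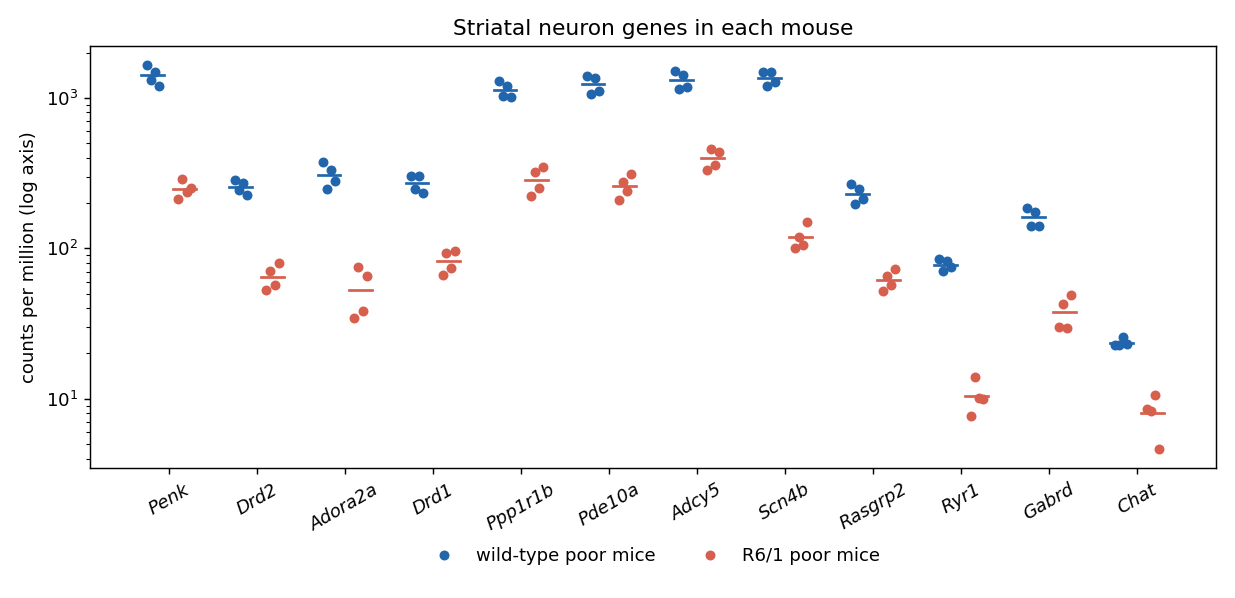
CPM (log axis) of 12 genes of striatal neurons in each of the 4 wild-type “poor” (blue) and 4 R6/1 “poor” mice (red), with the group means as bars. In every gene drawn, all 4 mutant mice lie below all 4 control mice also in Chat, the gene with the lowest levels drawn (4.66 to 10.6 CPM against 22.8 to 25.6 CPM).

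Most of the machinery that turns dopamine into cAMP fell with the receptors. Of 44 genes of dopamine, G protein and cAMP signalling, 31 fell and 3 rose, with a median of -0.70. Ppp1r1b, which encodes the dopamine-regulated phosphatase inhibitor DARPP-32, stood at 222, 320, 251 and 345 CPM in the mutants and at 1297, 1032, 1199 and 1018 CPM in the controls, with no overlap (-1.999 ± 0.15, adjusted p = 3.05e-05). Adcy5, the main adenylyl cyclase of MSNs, fell by 1.73 ± 0.12 on the log2 scale (adjusted p = 2.23e-05). The genes that rose, named after their values were seen, were the kinase subunits Prkar1b (0.43) and Prkacb (0.28) and the inhibitory G protein subunit Gnai1 (0.29), and all rose by less than any of the falls named above. Prkacb lost its call without mutant mouse 3 (adjusted p = 0.0508), and Gnai1 without mutant mice 1 or 3 or control mice 1 or 2 (adjusted p up to 0.0966).

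The sequence before the start of Drd2, of Adcy5 and of Kcnip2, a potassium channel subunit described below, is shown as examples of genes that fell. Each run is 240 bases on the gene’s strand from RefSeq (GRCm38.p6), ending 10 bases before the start, and does not touch an annotated exon. Capitals mark matches on either strand to 4 motifs, the cAMP response half-site (TGACG), the CCAAT box (CCAAT), the GC box (GGGCGG) and the TATA box (TATAAA), whose letters do not overlap in these runs.
Drd2, chr9:49340153-49340392, plus strand: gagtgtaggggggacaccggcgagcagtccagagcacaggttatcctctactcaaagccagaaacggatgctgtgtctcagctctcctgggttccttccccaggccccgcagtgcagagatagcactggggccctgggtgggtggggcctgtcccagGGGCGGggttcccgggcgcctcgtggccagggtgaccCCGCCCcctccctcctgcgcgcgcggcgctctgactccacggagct
Adcy5, chr16:35154614-35154853, plus strand: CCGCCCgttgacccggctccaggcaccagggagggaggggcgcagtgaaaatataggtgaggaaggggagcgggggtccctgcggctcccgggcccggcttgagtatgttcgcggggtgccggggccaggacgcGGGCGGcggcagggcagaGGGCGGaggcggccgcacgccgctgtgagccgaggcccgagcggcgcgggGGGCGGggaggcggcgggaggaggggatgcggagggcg
Kcnip2, chr19:45816074-45816313, minus strand: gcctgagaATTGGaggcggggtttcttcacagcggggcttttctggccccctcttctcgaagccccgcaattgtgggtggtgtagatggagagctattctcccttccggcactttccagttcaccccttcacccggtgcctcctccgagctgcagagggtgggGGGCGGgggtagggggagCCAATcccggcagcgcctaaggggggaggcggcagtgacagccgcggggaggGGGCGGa
Drd2 held 2 GC boxes, Adcy5 held 4, and Kcnip2 held 2 GC boxes and 2 CCAAT boxes. None of the 3 runs held the half-site or the TATA box. Among all 32851 windows of the table, cut to the same length, 31.3% held a GC box, 33.0% a CCAAT box, 16.9% the half-site and 12.1% the TATA box. These matches are a description of the letters.

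Calcium signalling and the Ras cascade followed. Of 43 genes of phosphoinositide and calcium signalling, 25 fell and 1 rose (median -0.50). Ryr1 (ENSMUSG00000030592, chromosome 7), a calcium release channel, stood at 7.74, 13.9, 10.1 and 9.90 CPM in the mutants and at 84.9, 70.4, 81.8 and 74.7 CPM in the controls. The control mice lay close together, and no mutant came near them (-2.91 ± 0.15, adjusted p = 6.45e-06). Pcp4, which binds calmodulin, fell by 1.54, the catalytic calcineurin subunit Ppp3ca by 1.27 and the calmodulin kinase Camk4 by 1.37, while Camk2g, named after its value was seen, rose by 0.32. Of 34 Ras and MAP kinase genes, 15 fell and none rose (median -0.32), among them the phosphatases Ptpn7 (-3.15) and Ptpn5 (-1.10) and the small GTPase Rasd2 (-1.91). Of 24 transcription factors of MSNs, 11 fell and 1 rose (median -0.25). The retinoid receptor Rxrg had a log2 fold change of -1.56, Klf16 of -1.13, Foxp1 of -1.03 and Dlx6 of -0.65, whereas Ikzf2 rose by 0.74 and lost its call without mutant mouse 3 (adjusted p = 0.0529).

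Ion channels and receptors moved in part. Of 58 potassium channel subunits, 22 fell and none rose (median -0.26), and the falls went deep in Kcnh4 (-2.55), a voltage-gated subunit, Kcnip2 (-1.48), which partners Kv4 channels, Kcnab1 (-1.20) and Kcnk2 (-1.02). DESeq2, which called 12.4% of all genes lower and 10.4% higher, gave 25 falls and 4 rises for the same subunits, and edgeR gave 30 and 2 without mutant mouse 4. Of 34 calcium and sodium channel subunits, 13 fell and 3 rose. Besides Scn4b, the falls included the auxiliary calcium channel subunits Cacna2d3 (-1.14) and Cacng4 (-1.10) and the R-type pore Cacna1e (-0.56). The genes that rose were the T-type calcium channel Cacna1g (0.70), the pacemaker channel Hcn3 (0.68) and the sodium leak channel Nalcn (0.33). Cacna1g lost its call without mutant mice 1 or 3 or control mice 2 or 3 (adjusted p up to 0.0642), and Nalcn without mutant mice 1 or 3 or control mouse 1 (up to 0.0783).

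Of 25 glutamate receptor subunits, 9 fell and 1 rose (median -0.26). The metabotropic receptors Grm4 (-1.16), Grm3 (-0.89) and Grm5 (-0.64) and the kainate receptor subunit Grik2 (-0.87) fell, and the kainate subunit Grik4 rose by 0.58. Of 15 GABA receptor subunits, 3 fell and 3 rose, with a median of 0.24. Gabrd (ENSMUSG00000029054, chromosome 4, 155384980 to 155398112), the delta subunit of extrasynaptic receptors, stood at 29.9, 42.9, 29.6 and 49.0 CPM in the mutants and at 186, 141, 175 and 142 CPM in the controls. The mutants held less than the lowest control in every case (-2.09 ± 0.18, adjusted p = 0.000149). Gabra5 rose by 0.47 and Gabra3 by 0.69. Gabrb1 rose by 0.32, but it overlaps Gabra4 (-0.50) on the other strand, and how the authors counted strands is not given in the sources used here. Gabrb1 lost its call without mutant mice 1 or 3 or any 1 control mouse (adjusted p up to 0.135), and Gabra4 without mutant mouse 3 (0.0533).

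At the synapse, 12 of 28 postsynaptic density scaffolds fell and none rose (median -0.46), including Actn2 (-1.62), the spinophilin and neurabin genes Ppp1r9b (-1.05) and Ppp1r9a (-0.68), and Shank3 (-1.13). Synaptic vesicle genes moved less, with 6 of 32 lower and 2 higher (median -0.10). Among them Cplx2, a complexin that clamps fusion, fell by 0.97, Synpr and Sv2c each by 0.85 and Unc13c by 0.80, while the general vesicle proteins Syp (0.47) and Sv2a (0.30) rose. Without mutant mouse 4, where 13.5% of all genes were lower, the scaffolds gave 19 falls and the vesicle genes 12. Within libraries 9 to 16, where 6.93% were lower, they gave 5 and 4. Sv2a overlapped between the groups and lost its call without mutant mice 1, 2 or 3 or control mice 1, 2 or 3 (adjusted p up to 0.079).

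**Figure D3:**
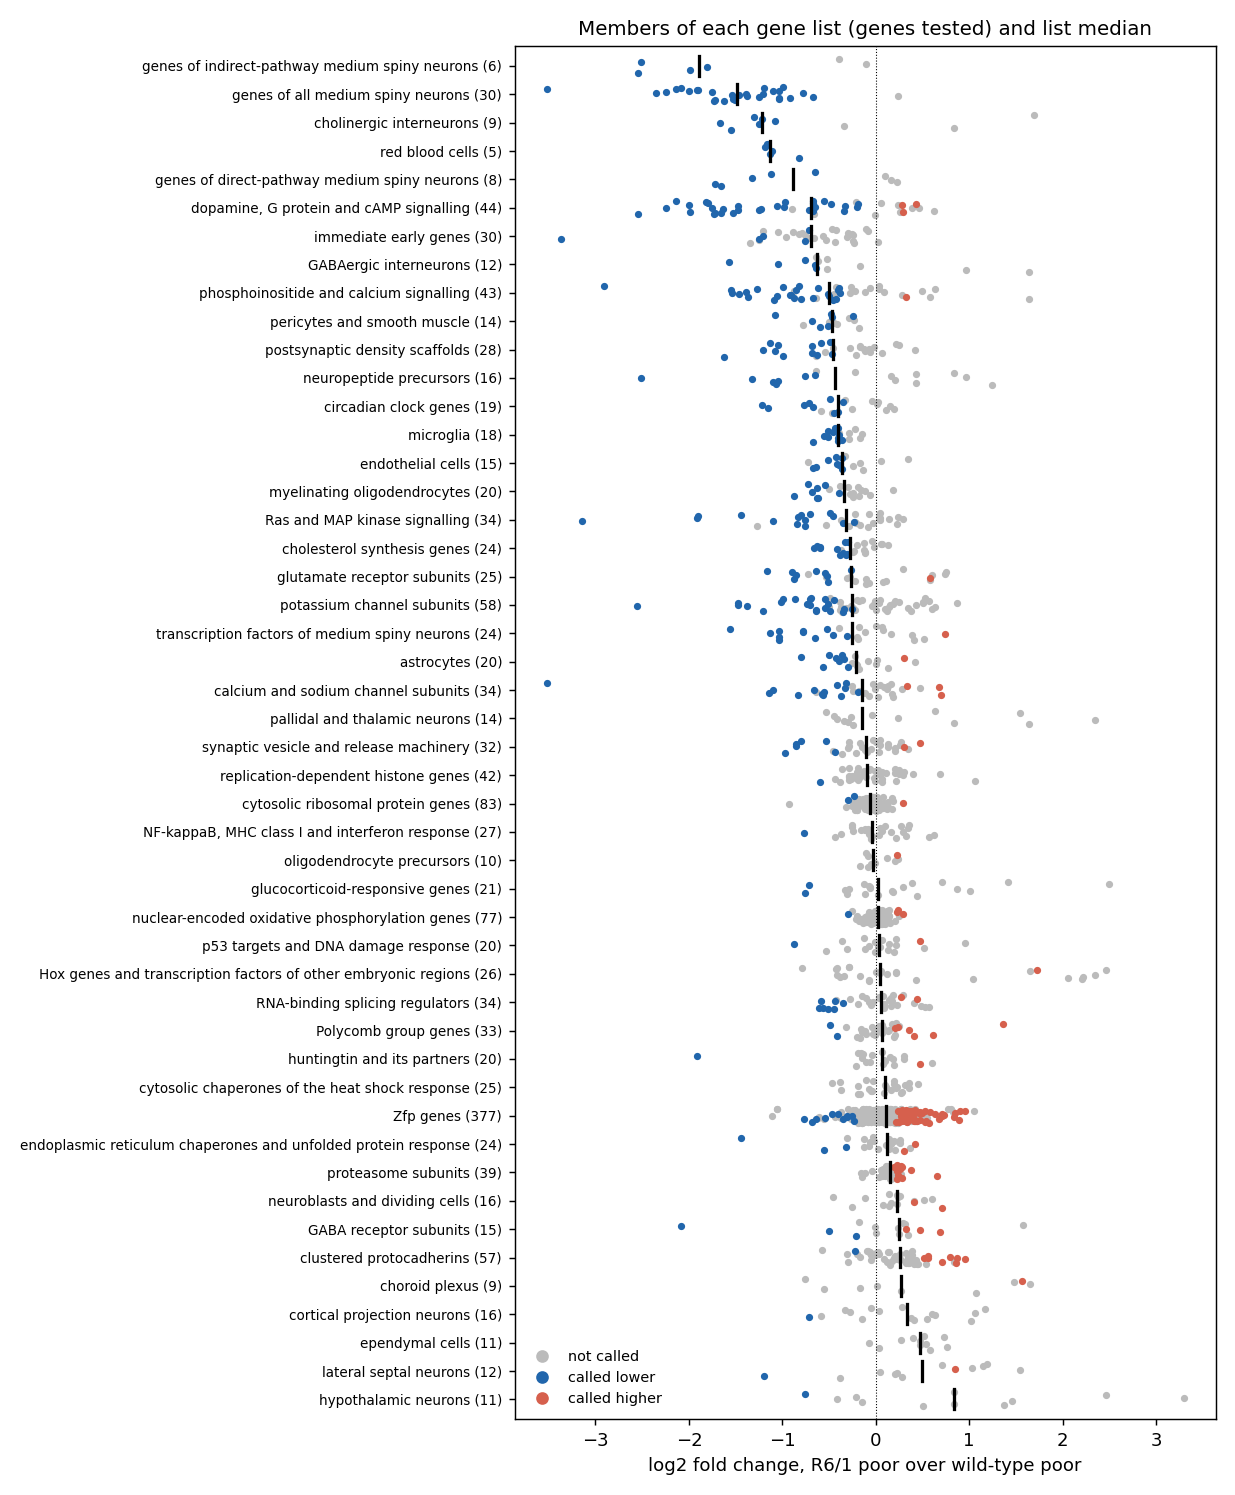
Log2 fold change (R6/1 “poor” over wild-type “poor”) of every tested member of the gene lists other than the genes the study discusses, coloured by call, with the list median as a black bar and the number of genes tested in brackets. The lists of medium spiny neurons, cholinergic interneurons and red blood cells lie at the top with medians of -1.90 to -0.89 and every call in blue, and proteasome, Zfp and protocadherin genes lie to the right of 0 with calls mostly in red.

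Genes that respond to activity and to time of day were also lower. Of 30 immediate early genes, 5 fell and none rose, a share of calls not far from that of all genes, but the median was -0.69 and 29 of the 30 values were negative. DESeq2 gave 13 falls, against 12.4% of all genes lower, and edgeR gave 13 without mutant mouse 4 (13.5% of all genes) and 4 within libraries 9 to 16 (6.93%). Egr2, a zinc finger factor induced by synaptic activity, stood at 0.598, 0.386, 0.649 and 0.900 CPM in the mutants and at 2.17, 14.8, 5.35 and 4.22 CPM in the controls. The controls spread widely and did not overlap the mutants (-3.36 ± 0.62, adjusted p = 0.00687). Dusp1, a MAP kinase phosphatase, fell by 0.75, Per1 by 0.72 with overlap, and Homer1 by 1.21. Homer1 lost its call without mutant mouse 3 (adjusted p = 0.0533). Of 19 circadian clock genes, 9 fell and none rose (median -0.40), with Npas2, a partner of Bmal1 that is rich in forebrain, at -1.22 and the PAR bZIP output factors Dbp at -1.15, Hlf at -0.67 and Tef at -0.49. Dbp stood at 19.8, 28.7, 24.8 and 26.3 CPM in the mutants and at 60.9, 36.4, 63.4 and 60.6 CPM in the controls. Control mouse 2 was the lowest control and still above every mutant. Time of death is not given by mouse in the sources used here. Of 21 glucocorticoid-responsive genes, 2 fell, Dusp1 and Per1, which are also in the list of immediate early genes. The share lower was 9.52%, against 10.8% of all genes, and the median was 0.02. Plin4 had a log2 fold change of 2.49 with overlap and an adjusted p of 0.0704. Dusp1, Dbp and Plin4 overlap Ergic1, Sphk2 and Hdgfl2 on the opposite strand, so their values are uncertain where reads of both strands were counted.

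Neuropeptides and local interneurons changed beyond the MSNs. Of 16 neuropeptide precursors, 7 fell and none rose (median -0.43). Without mutant mouse 4 there were 8 falls, 1 rise and a median of -0.65, and within libraries 9 to 16 there were 4 falls and a median of -0.25. Among those not made by MSNs, somatostatin (Sst) fell by 0.75 and neuropeptide Y (Npy) by 1.05. Of 12 genes of GABAergic interneurons, 5 fell (median -0.63), among them Pthlh (-1.57), the nitric oxide synthase Nos1 (-0.65) and the receptor kinase Kit (-0.64). In that list 2 genes had positive values, up to 1.64, without a call. Genes of cholinergic interneurons, the large aspiny cells that supply striatal acetylcholine, fell in 6 of 9 cases (median -1.22). Another 2 of the 9 had positive values, up to 1.69, without a call. Without mutant mouse 4, and against all 8 wild-type mice, 1 gene of the list was called higher. Chat (chromosome 14, 32408203 to 32465989), which makes acetylcholine, stood at 8.55, 8.25, 10.6 and 4.66 CPM in the mutants and at 22.8, 22.9, 25.6 and 23.0 CPM in the controls. The controls were nearly level and the mutants all lay below 11 CPM (-1.55 ± 0.20, adjusted p = 0.000706). The vesicular glutamate transporter Slc17a8 fell by 1.66 and the substance P receptor Tacr1 by 1.30.

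The 12 largest falls by the naming rule lay mostly outside the classical MSN genes. Gpx6 (ENSMUSG00000004341, chromosome 13, 21312125 to 21319624), a glutathione peroxidase, had 3, 3, 1 and 2 counts in mutant mice 1 to 4 and 98, 80, 149 and 131 counts in the control mice. It was close to absent in every mutant library. Scaled by depth, the controls held 51.5 times as much (95% exact interval 26.9 to 113 for counting error alone), and the fitted log2 fold change was -5.66 ± 0.31 (adjusted p = 5.28e-06). After it came Gm39043 (-4.45), the receptor-type phosphatase Ptprv (-3.78), Scn4b, Egr2, the growth factor Fgf3 (-3.33), A830012C17Rik (-3.32), Sec14l3 (-3.32), Ankk1 (-3.25), Ptpn7, the membrane transporter Slc4a11 (-3.12) and Abhd11os (-2.98). Ankk1 is the neighbour of Drd2, and A830012C17Rik lies on the strand opposite Penk, so its value is uncertain where reads of both strands were counted. A830012C17Rik lost its call without mutant mice 1 or 3 (adjusted p up to 0.0593).

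The 12 largest rises were smaller, from 1.17 to 1.72 on the log2 scale. Esr1, the oestrogen receptor alpha, stood at 8.42, 3.23, 7.54 and 3.93 CPM in the mutants and at 1.11, 1.93, 1.35 and 2.62 CPM in the controls. The mutants were uneven, with mice 1 and 3 high (1.72 ± 0.37, adjusted p = 0.0103), and these are also the mice with the most RNA of lateral septal genes, whose part in the result was not tested. Fgf10 (chromosome 13, 118669791 to 118792115), a fibroblast growth factor, stood at 8.21, 7.58, 8.96 and 7.36 CPM against 2.17, 2.80, 3.39 and 3.51 CPM. Here the mutants were level and all above the controls (1.43 ± 0.17, adjusted p = 0.000302). Tpx2, a spindle assembly factor, stood at 6.92, 7.43, 8.55 and 10.5 CPM against 3.58, 3.05, 4.61 and 2.67 CPM, also without overlap (1.26 ± 0.20, adjusted p = 0.0016). The others were 1110015O18Rik (1.48), Gm3164 (1.40), which overlaps Gm3173 on the same strand, Psg16 (1.40), Sfmbt2 (1.36), the cell cycle protein Cks2 (1.31), Fam196b (1.28), which lies opposite Dock2, Tdrd5 (1.25), the glutamate transporter Slc1a6 (1.20) and the vessel growth factor Angpt1 (1.17).

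Below the expression limit of that rule, 2 developmental transcription factors that are hardly present in the control striatum rose, and both are named after their values were seen. Wt1, the Wilms tumour factor of kidney and gonad, had 25, 43, 35 and 33 counts in mutant mice 1 to 4 and 5, 1, 0 and 2 counts in the control mice. Every mutant was above every control, and the mutants held 16.8 times as much (95% exact interval 8.29 to 39.7 for counting error alone, adjusted p = 0.000818). Pou4f1, a factor of sensory and habenular neurons, had 112, 17, 10 and 21 counts in the mutants and 2, 1, 2 and 1 counts in the controls (adjusted p = 0.0164). Mutant mouse 1 held most of the Pou4f1 counts, and the gene lost its call narrowly without control mouse 1 or 3 (adjusted p up to 0.05002) and within libraries 9 to 16 (0.0598). Of 26 tested Hox genes and transcription factors of other embryonic regions, 1 rose, Six4 (1.72), and none fell. The share higher was 3.85%, against 8.48% of all genes. Without mutant mouse 4 there were 4 rises and 1 fall, where 11% of all genes were higher. Against all 8 wild-type mice there were 6 rises and 0 falls, where 13.5% were higher. The other genes of the 104 listed did not pass the filter on low counts.

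Of 377 Zfp genes, 56 rose and 11 fell, so 14.9% were higher against 8.48% of all genes, with a median of 0.11. Zfp711 (0.64) and Zfp30 (0.47) rose, whereas Zfp180 (-0.69) and Zfp706 (-0.41) fell. Within libraries 9 to 16, 27 rose and 7 fell. Of 33 Polycomb group genes, 6 rose and 2 fell. The shares were 18.2% higher against 8.48% of all genes, and 6.06% lower against 10.8%. Within libraries 9 to 16 there were 2 rises and 1 fall, where 3.94% of all genes were higher and 6.93% lower. Sfmbt2 (ENSMUSG00000061186, chromosome 2), a Polycomb repressor, stood at 14.8, 18.9, 15.1 and 10.8 CPM in the mutants and at 4.94, 6.77, 5.10 and 6.36 CPM in the controls. Mutant mouse 4 had the least of the mutants and was above all controls (1.36 ± 0.18, adjusted p = 0.000564). The chromobox gene Cbx8 (0.62) also rose, and Scmh1 (-0.49) and Cbx6 (-0.41) fell, the last without a call once mutant mouse 3 was left out (adjusted p = 0.0581). Of 57 clustered protocadherins, cell surface proteins that give neurons an identity, 8 rose and 1 fell (median 0.26), led by Pcdhb2 (0.96), Pcdhb3 (0.87), Pcdhb9 (0.56) and Pcdhb22 (0.52). Pcdhb3 stood at 7.91 to 9.08 CPM in the mutants and 4.25 to 4.89 CPM in the controls. These genes are near copies of each other, so reads may be shared among them. The gene that fell was Pcdhgc3 (-0.22), which shares its last exons with the other gamma genes and lost its call without mutant mice 1, 2 or 3 or control mice 1, 3 or 4 (adjusted p up to 0.0941).

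Polr2a (chromosome 11, 69733997 to 69758637), the largest subunit of RNA polymerase II, was singled out after its values were seen. It stood at 121, 121, 118 and 104 CPM in the mutants and at 63.9, 64.6, 70.4 and 72.9 CPM in the controls. All mutants were well above all controls (0.77 ± 0.07, adjusted p = 0.000107). Nfya (chromosome 17, 48386885 to 48409906), the subunit of the factor that binds CCAAT boxes, stood at 42.5, 46.0, 43.0 and 46.6 CPM against 27.8, 31.3, 25.0 and 24.3 CPM, with no overlap (0.72 ± 0.09, adjusted p = 0.000421). Its partner Nfyb had a log2 fold change of 0.10 (adjusted p = 0.38). Of 39 proteasome subunits, 11 rose and none fell, 28.2% against 8.48% of all genes, with a median of 0.16. Psmb10, a subunit of the immunoproteasome, stood at 24.3, 27.3, 23.9 and 29.5 CPM against 15.5, 18.6, 13.1 and 19.7 CPM, and the groups did not overlap (0.65 ± 0.13, adjusted p = 0.00612). Psmd1 rose by 0.38. Within libraries 9 to 16 the list had 4 rises, against 3.94% of all genes there, and without mutant mouse 4 it had 9. Among 34 RNA-binding splicing regulators, 7 fell and 2 rose, with Celf2 at -0.51, Celf1 at -0.45, Qk at -0.43 and Srrm4 at 0.44. The other rise, Srsf6 (0.27), lost its call without mutant mice 1 or 3 or control mice 1, 3 or 4 (adjusted p up to 0.0749).

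Rises were more frequent on the X chromosome than on any autosome, a comparison made after the calls were known. The Y chromosome, with 9 tested genes of which 2 were higher, was left aside. Of 644 tested X-linked genes, 121 were higher, 18.8% against 6.28% to 11.4% on the autosomes, and 7.30% were lower against 8.82% to 12.9%. The median log2 fold change on the X was 0.12, and on the autosomes it ran from -0.02 to 0.03. The share of X-linked genes called higher was 11.6% within libraries 9 to 16 (1.59% to 5.23% on the autosomes) and 27.0% without mutant mouse 4 (8.45% to 15.3%). In the “good” mice it was 10.9%, against 4.09% to 8.10% on the autosomes. All mice were male by their labels. Gprasp2 (chromosome X, 135839034 to 135844730), a protein that sorts G protein-coupled receptors, stood at 412, 329, 397 and 228 CPM in the mutants and at 137, 161, 153 and 182 CPM in the controls. Mutant mouse 4 was nearest to the controls without reaching them (1.11 ± 0.17, adjusted p = 0.00283), and the related Gprasp1 rose by 0.68. Both overlap Bhlhb9 on the same strand.

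**Figure D4:**
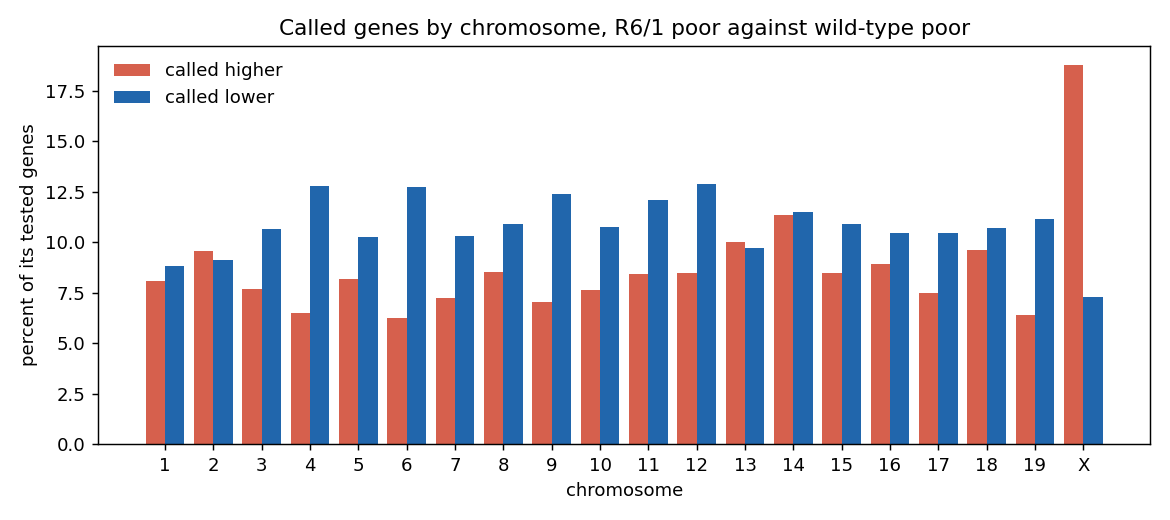
Percent of the tested genes of each chromosome called higher (red) and lower (blue) in R6/1 “poor” against wild-type “poor” mice, with the Y chromosome left out for its few genes. The X chromosome has the tallest red bar, 18.8%, and the autosomes lie between 6.28% and 11.4%.

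For 3 of the genes that rose, Sfmbt2, Gprasp2 and Polr2a, the sequence before the start is given in the same way as above, with the same motifs in capitals, to set beside those of the genes that fell.
Sfmbt2, chr2:10370201-10370440, plus strand: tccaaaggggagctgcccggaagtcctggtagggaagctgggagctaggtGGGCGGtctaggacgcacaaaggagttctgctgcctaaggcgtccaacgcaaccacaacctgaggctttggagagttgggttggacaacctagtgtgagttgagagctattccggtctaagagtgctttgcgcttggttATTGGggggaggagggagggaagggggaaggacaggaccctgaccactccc
Gprasp2, chrX:135838784-135839023, plus strand: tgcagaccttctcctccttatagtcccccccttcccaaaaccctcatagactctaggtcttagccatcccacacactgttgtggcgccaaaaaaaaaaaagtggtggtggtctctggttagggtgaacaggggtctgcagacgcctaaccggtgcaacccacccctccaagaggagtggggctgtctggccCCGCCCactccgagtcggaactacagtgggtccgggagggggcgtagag
Polr2a, chr11:69758644-69758883, minus strand: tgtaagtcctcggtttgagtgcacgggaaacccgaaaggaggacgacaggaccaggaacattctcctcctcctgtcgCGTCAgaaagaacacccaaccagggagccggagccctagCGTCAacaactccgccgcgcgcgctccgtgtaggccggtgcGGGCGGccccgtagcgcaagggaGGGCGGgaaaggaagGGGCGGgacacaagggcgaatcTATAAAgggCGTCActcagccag
Sfmbt2 held 1 GC box and 1 CCAAT box, Gprasp2 held 1 GC box, and Polr2a held 3 GC boxes, 3 half-sites and 1 TATA box. The GC box was thus found in all 6 runs printed, in genes that rose and in genes that fell.

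Genes of microglia, astrocytes, myelinating oligodendrocytes and vessels fell in part. All 18 microglial genes had negative log2 fold changes and 12 fell (median -0.40, 12 without mutant mouse 4 and 9 within libraries 9 to 16). P2ry12, the purinergic receptor of resting microglia, stood at 43.5, 53.2, 46.8 and 55.5 CPM in the mutants and at 68.5, 69.4, 66.5 and 68.5 CPM in the controls. The controls were almost level and every mutant was lower (-0.46 ± 0.08, adjusted p = 0.0034). Cx3cr1 (-0.51) and Aif1 (-0.67) fell with it. P2ry12 overlaps Med12l on the opposite strand. Cx3cr1 overlaps other genes on the opposite strand and also Gorasp1 and Csrnp1 on the same strand. Of 20 astrocyte genes, 8 fell and 1 rose (median -0.22). Slc1a2 (chromosome 2, 102658659 to 102790784), the main glutamate transporter of astrocytes, stood at 1559, 1636, 1742 and 2180 CPM against 3153, 3227, 2923 and 3069 CPM, and all mutants were below all controls (-0.80 ± 0.10, adjusted p = 0.000525). Aldoc fell by 0.57, Slc4a4 by 0.50 and Ntsr2 by 0.43. The gene that rose was S100b (0.31), with overlap and no call without mutant mice 1, 2 or 3 or control mice 1, 3 or 4 (adjusted p up to 0.0941). Gfap, the usual sign of reactive astrocytes, had a log2 fold change of -0.21 (adjusted p = 0.0888).

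Of 20 genes of myelinating oligodendrocytes, 8 fell and none rose (median -0.34). The enzymes of myelin lipids Fa2h (-0.88) and Ugt8a (-0.73), the aspartoacylase Aspa (-0.63) and the myelin protein Mobp (-0.68) fell. Oligodendrocyte precursors showed 1 change in 10 genes, a rise of Tnr (0.23) that was lost without any 1 mouse but control mouse 4 (adjusted p up to 0.11). Cholesterol synthesis genes, active in glia, fell in 11 of 24 cases (median -0.27), with Insig1 and Msmo1 both at -0.59 and Acat2 at -0.38. Within libraries 9 to 16 there were 4 falls.

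Endothelial genes fell in 8 of 15 cases (median -0.36), among them Emcn (-0.64), Pecam1 (-0.51), Flt1 (-0.41) and Slco1a4 (-0.36). Genes of pericytes and smooth muscle fell in 7 of 14 cases (median -0.47), with Myh11, the smooth muscle myosin, at -0.68. Pdgfrb (-0.47), Vtn (-0.48) and Tagln (-1.07) lost their calls without mutant mice 1 or 3 or control mice 1, 3 or 4 (adjusted p up to 0.114), and Pdgfrb and Vtn overlapped. All 5 tested genes of red blood cells fell (median -1.14), and 4 of them fell within libraries 9 to 16. Alas2, which makes haem and overlaps Apex2, lost its call without mutant mouse 3 or control mice 1 or 3 (adjusted p up to 0.0668). Hbb-bs, a beta globin, stood at 16.5, 20.6, 17.0 and 20.5 CPM in the mutants and at 48.5, 40.2, 43.1 and 38.3 CPM in the controls, without overlap (-1.19 ± 0.10, adjusted p = 6.11e-05). Hbb-bt (-1.17), Hba-a1 (-1.14) and Hba-a2 (-1.11) matched it, and these near copies may share reads. The summed globin and haem gene level ran from 85.0 to 127 CPM in the mutants and from 189 to 276 CPM in the controls, and how much blood was left in the tissue was not tested.

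Among the called genes with the most counts, chosen by level alone, the 8 that fell included Mbp (-0.39), Slc1a2, Ndrg4 (-0.46), the desaturase Scd2 (-0.31), the ferritin chain Fth1 (-0.42) and the glutamine synthetase Glul (-0.40). The 8 that rose were the noncoding RNAs Meg3 (0.24) and Rian (0.22), the ubiquitin gene Ubb (0.26) with the ubiquitin-like Gm1821 (0.27), the tubulins Tuba1c (0.34) and Tuba1a (0.24), the kinetochore linker Zwint (0.44) and Gprasp1. Ubb and Gm1821, and the tubulins, are near copies, so their counts are uncertain. Leaving out 1 mouse at a time ended the call of Mbp, Glul, Meg3, Rian, Gm1821 and Tuba1a for at least 5 of the 8 mice each, mutant mice 1 and 3 among them in every case, with adjusted p up to 0.121.

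Genes of heat shock, histones, ribosomes and oxidative phosphorylation had smaller shares of calls in the main fit than all genes, of which 8.48% were higher and 10.8% lower. Heat shock chaperones gave 0 calls among 25 genes by edgeR (7 at an unadjusted p under 0.05, 3 rises and 1 fall by DESeq2), with Hspa8 at 0.45 (adjusted p = 0.0511). Replication-dependent histones gave 1 fall in 42 (Hist1h1c, -0.59), ribosomal proteins 2 falls and 1 rise in 83, and oxidative phosphorylation genes 3 rises and 1 fall in 77. Of the 83 ribosomal genes, 61 had negative values, and DESeq2 gave 8 falls. Against all 8 wild-type mice 19 of the 83 fell, a larger share than the 14.9% of all genes there. Among 24 genes of the endoplasmic reticulum stress response, 3 fell and 2 rose, with Trib3 (-1.44) and Atf6 (-0.55) lower and Asns (0.31) and Ern1 (0.42) higher, and among 20 p53 targets Plk2 fell by 0.88 and Sesn2 rose by 0.47. Ddit3, the third of the falls, had a log2 fold change of -0.32 and lost its call without mutant mice 1, 2 or 3 or control mice 1, 2 or 4 (adjusted p up to 0.142), and Sesn2 without any 1 mouse but mutant mouse 2 and control mouse 4 (up to 0.0923). Of 27 genes of NF-kappaB, MHC class I and interferon response, Nfkb2 alone fell (-0.77), and it overlaps Psd on the other strand. Nfkb2 lost its call without mutant mouse 3 or control mouse 1 (adjusted p up to 0.0711). Of 20 genes of huntingtin and its partners, Rasd2 fell and F8a rose (0.47).

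The genes that the study discusses for the striatum were chosen in part on these samples, so their counts are not independent evidence, and 14 of 30 fell and 6 rose. Beyond those above, Plk5 stood at 5.13, 8.59, 6.04 and 5.44 CPM in the mutants and at 33.5, 28.4, 22.1 and 25.4 CPM in the controls, 4 mutants below 4 controls (-2.12 ± 0.18, adjusted p = 6.53e-05). The inositol kinase Itpka fell by 1.54, Rin1 by 1.44 and the methyl-CpG binder Mbd2 by 0.34. The axon guidance gene Slit1 rose by 0.97, the adhesion genes Dscam by 0.60 and Cdh2 by 0.36, and the cation channel Trpc4 by 0.85. Without mutant mouse 3 the calls of Dscam, Cdh2 and Trpc4 were lost (adjusted p up to 0.0587), and those of Dscam and Trpc4 also without control mouse 1 or 3. No call was made for the apoptosis genes Bax (-0.0095) and Bcl2 (-0.14), nor for H2-Q7 (0.14), Cdkn1a (-0.31), Ddit4 (-0.11), Fgfr3 (0.0049), Adgrg1 (0.14) or Hsp90b1 (-0.06). Arg1 did not pass the filter on low counts.

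Markers of neighbouring regions were measured in the same libraries. Cortical genes gave 1 fall in 16, Lamp5 (-0.72), with a median of 0.33 that turned to -0.69 without mutant mouse 4. Slc17a7, the vesicular glutamate transporter of cortical neurons, stood at 20.7, 82.1, 135 and 592 CPM in the mutants and at 226, 354, 53.3 and 231 CPM in the controls, and the groups overlapped fully. Of 11 hypothalamic genes tested, Sst alone fell, and the median was 0.84. Their summed level was 137, 118, 128 and 111 CPM in mutant mice 1 to 4 and 154 to 174 CPM in the controls. Sst, also a gene of interneurons, made up 59.3, 92.2, 73.2 and 100 CPM of it in the mutants. In the controls Sst made up most of the sum, 128 to 144 CPM. Otp stood at 4.02, 0.579, 2.23 and 0.0409 CPM in the mutants and at 0 to 0.356 CPM in the controls (adjusted p = 0.0805). Of 12 lateral septal genes, Igfbp4 fell by 1.19 and Trpc4 rose, with a list median of 0.49. Ependymal genes gave 0 calls in 11 by edgeR and by DESeq2 (1 at an unadjusted p under 0.05, median 0.48), choroid plexus genes 1 in 9 (Sostdc1, 1.56, lost without any 1 mouse but mutant mice 2 and 4, adjusted p up to 0.0908), and pallidal and thalamic genes 0 in 14 by either tool (1 at an unadjusted p under 0.05). Their part in the results for genes shared with these regions was not tested. Neuroblasts and dividing cells gave 2 rises in 16, Dcx (0.41) and Birc5 (0.71), the latter lost without any 1 mouse but control mouse 3 (adjusted p up to 0.104).

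The same contrast in the “good” performers, R6/1 “good” against wild-type “good”, shares no mouse with the comparison above. There edgeR called 5.79% of all genes higher (1121) and 8.14% lower (1577). Of the genes lower in “poor” mutants, 1053 were also lower in “good” mutants, 50.3% of the first list and 66.8% of the second, and of those higher, 613 were shared, 37.3% and 54.7%. None of the 1666 shared genes changed sign. Of the genes called lower in “poor” mutants, 2043 of 2093 had a negative log2 fold change in “good” mutants, and of those called higher, 1608 of 1642 had a positive one, against 74.8% of all genes with the same sign. The median of the genes called lower was -0.65 in “poor” and -0.48 in “good” mice, and that of the genes called higher was 0.39 and 0.31. Because these genes were chosen by their call in the “poor” mice, a smaller median in the other mice comes with the choice. The MSN list had a median of -1.09 in “good” mice with 27 of 30 genes lower.

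**Figure D5:**
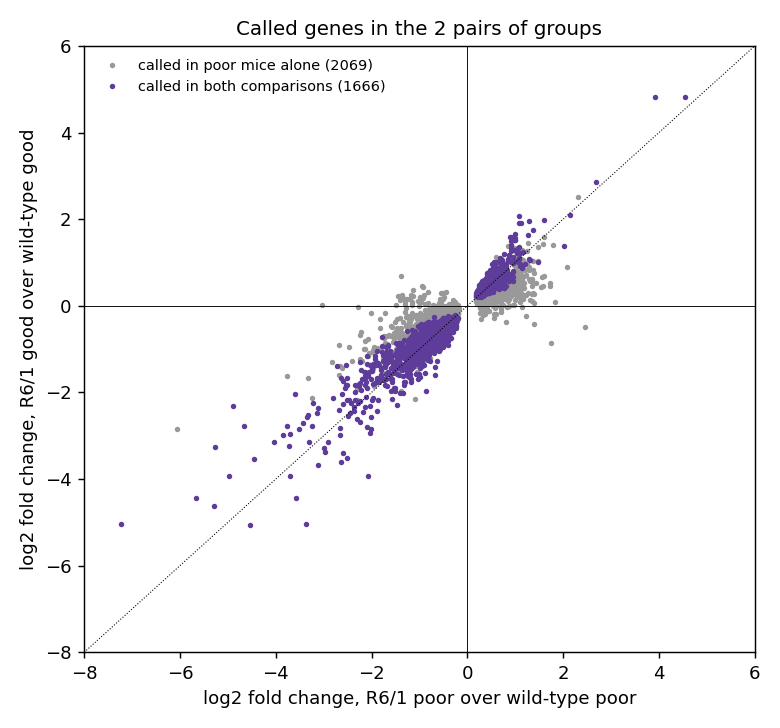
Log2 fold change of the 3735 genes called in the “poor” mice (x axis) and of the same genes in the “good” mice (y axis), each R6/1 over wild-type of the same performance, with the genes called in both in purple and the line of equality dotted. The 1666 purple points lie below 0 on both axes or above 0 on both.

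Whether genotype acted differently in “poor” and “good” mice was tested by the interaction of genotype and performance over all 16 mice. edgeR called 0 of 19363 genes (smallest adjusted p = 0.708), with 1118 genes at an unadjusted p under 0.05, and DESeq2 called 1 gene with 1127 at that unadjusted level. By the naming rule the genes with the smallest p were Ano2, Notch4, Pcdhb6, Susd1 and Hebp2. Ano2, a calcium-activated chloride channel, stood at 11.8, 16.8, 13.7 and 13.2 CPM in “poor” mutants and at 24.9, 21.8, 30.9 and 25.5 CPM in “poor” controls, a fall without overlap (-0.90 ± 0.13, adjusted p = 0.00106). In “good” mice its log2 fold change was 0.26 (adjusted p = 0.32), and the unadjusted p of the interaction was 7.6e-05. Hebp2 rose by 0.81 in “poor” mice and had a log2 fold change of -0.37 in “good” mice, while Notch4 (0.24 and -0.63), Pcdhb6 (-0.17 and 0.53) and Susd1 (-0.11 and 0.53) had opposite signs in the same order. The libraries of the R6/1 “good” mice all carry numbers 1 to 8, so in the interaction the running number and the groups cannot be fully told apart. Gabrd fell by 2.09 in “poor” and by 1.35 in “good” mutants on the log2 scale, and edgeR did not call its interaction.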

How the data were processed

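Striatal mRNA libraries of 16 male mice were used as the authors deposited them, 1 library per mouse. The authors cleaned the RNA with RNeasy columns, made stranded mRNA libraries, sequenced paired-end reads and mapped them to GRCm38 with TopHat 1.0.1. The submitters’ processing notes also name CASAVA and Bowtie. The deposited values are raw counts per gene, without normalization. How reads were counted, whether strand was used and which gene models served are details not given in the sources used here. Reads of genes that overlap or are near copies may be shared.

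Total counts per library ran from 16155356 to 24897354. A gene was kept where 4 or more of the 16 libraries held 10 counts or more. The 4 R6/1 “poor” and 4 wild-type “poor” libraries were fitted alone, with TMM factors and the quasi-likelihood test of edgeR 4.0.16 (robust dispersions, R 4.3.3), Benjamini-Hochberg adjustment over all genes tested and a threshold of 0.05. The study pooled its controls and used DESeq2, and DESeq2 1.42.0 was run as an alternative. The “good” mice and the interaction were fitted the same way. CPM are after TMM, with mean and SD over mice. Errors of log2 fold changes are standard errors from the fit. Counting intervals are exact 95% intervals and cover counting error alone. The sources used here do not give each mouse’s litter or cohort. Each p-value sets a difference between groups against the spread of these mice within the groups.

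The text names (a) 12 rises and 12 falls, the largest of the called genes that did not overlap and averaged 1 or more in log2 CPM, (b) up to 4 members of each of 49 lists by p, (c) the genes the study discusses, (d) the 8 called genes per direction with the most counts and (e) the 5 genes with the smallest interaction p. Other genes are named after their values were seen. The members, lists and rule were chosen with earlier results of these data known. In all, 3 list symbols had no match. Gene coordinates are from GENCODE M21 (GRCm38). On simulated data for this comparison with 19363 genes, of which 200 were changed, edgeR recovered 59.7%, 77.6% and 92.4% of genes changed 1.5-fold, 2-fold and 3-fold, with 12 false calls. The changed genes were drawn from those with a mean above 1 CPM and moved in random directions. They were far fewer than the 3735 genes called in the real data, so these rates need not hold there. Python 3.11.15, pandas 2.3.3, scipy 1.17.1 and matplotlib 3.10.9 were used. Some genes that the rule names are not reported here. Behaviour, RT-qPCR and chromatin data were not analysed here.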

Additional observations from a re-analysis of the deposited data

Results flagged for a closer look

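Within groups of 4 mice, single values far from the other 3 were sought by Dixon’s ratio at its 95% limit for the genes whose values are given by mouse and for the summed cell type markers, which chance passes in about 1 group in 20. The search covered 70 groups for the genes, besides those for the 19 lists of cell type markers, so some values can pass by chance alone. Dbp in wild-type “poor” mouse 2 was 36.4 CPM against 60.6 to 63.4 in the other 3. Chat in wild-type “poor” mouse 3 was 25.6 CPM against 22.8 to 23.0. Pou4f1 in R6/1 “poor” mouse 1 was 4.79 CPM against 0.405 to 0.859. The summed markers of neuroblasts and dividing cells in wild-type “poor” mouse 1 were 403 CPM against 421 to 425.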

How the results depend on the processing

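Every one of the 3735 called genes kept its sign within libraries 9 to 16, without R6/1 “poor” mouse 4, by DESeq2 and against all 8 wild-type mice. All kept it also with a covariate that split the running numbers into 1 to 8 and 9 to 16. These settings reuse mice by which the genes were called, so the kept sign comes largely with the choice and is not independent evidence. The count of calls fell to 2104 within libraries 9 to 16 (763 higher, 1341 lower), and against all 8 wild-type mice 2619 genes were higher. Leaving out 1 mouse gave 2144 to 4741 calls (756 to 2124 higher, 1388 to 2617 lower), lowest without R6/1 “poor” mouse 3. For the “good” mice it gave 1381 to 2582 calls (483 to 981 higher, 898 to 1613 lower). There the same covariate gave 1578 (652 higher, 926 lower), and 1 fit of all 4 groups gave 1792 higher. The interaction gave 1 call by DESeq2 and 0 to 2 with 1 mouse left out. The cause of these shifts was not tested. With the replicate number as a block, the “poor” mice gave 1728 calls (494 higher, 1234 lower) and the “good” mice 1539 (529 higher, 1010 lower). Same-numbered mice did not deviate together (correlations of -0.24 to 0.02 in “poor” and -0.35 to 0.09 in “good” mice), so the numbers do not pair the mice. Of 201 called genes examined by mouse left out, 158 kept the call in all 8 fits and 43 lost it in at least 1. Uncalled genes near 0 changed sign. With 1 mouse left out, Bax ran from -0.11 to 0.061, Hsp90b1 from -0.13 to 0.10, Fgfr3 from -0.047 to 0.089, H2-Q7 from -0.10 to 0.33 and Slc17a7 from -1.44 to 0.32. Within libraries 9 to 16, Hsp90b1 was 0.0090 and Slc17a7 was 0.23, and Fgfr3 was -0.0072 with a filter of 50 counts and -0.0029 with the covariate. Depth limits genes such as Gpx6, Wt1 and Pou4f1, with single counts in 1 group.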
